A study of Mus musculus with 5 samples.

Results

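Hox genes are the subject here: 39 homeobox genes in 4 clusters, of which 29 had a row of their own in the deposited table of 28092 rows and 10 were named only in rows shared by several genes. Members were found by symbol, that is Hoxa, Hoxb, Hoxc or Hoxd followed by a number, without use of any measured value. The 10 genes without their own row (Hoxa3, Hoxa5, Hoxa6, Hoxa7, Hoxa9, Hoxa10, Hoxa11, Hoxb9, Hoxd3 and Hoxd4) lay in 6 shared rows, which are kept apart because 1 value there covers all genes named. Where a gene such as Hoxb3 had 2 rows, the row with the higher mean was used. RNA came from whole forelimbs of E11.5 mouse embryos (47 to 48 somites, mixed C57BL/6 and Swiss Webster), with 3 control samples and 2 Prmt5cKO samples of genotype Prx1Cre+/-;Prmt5c/c. The alleles of the controls are given only as control. Prx1Cre drives recombination in limb bud mesenchyme, so ectoderm, blood, vessels, nerves and muscle precursors in the whole forelimb are not its known targets.

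Hox proteins are transcription factors that give cells their position along the body and limb axes. The genes sit in order in each cluster, from paralog group 1 at the 3′ end to group 13 at the 5′ end, and that order matches where and when they are switched on. In the limb the 5′ genes of clusters A and D pattern upper arm, forearm and hand in turn, with the group 13 genes marking the future hand. The D cluster is known to be driven in the limb by enhancers on both flanks, those beyond its 3′ side for the arm and those beyond its 5′ side for the digits.

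The values are 1 FPKM (fragments scaled to transcript length and to mapped fragments) per row and genotype, as the authors computed them, so no spread over samples and no sequencing depth can be given. FPKM are per length, so levels may be set side by side between genes, but with no spread known it cannot be said which neighbours in an order of levels truly differ. Fold changes and q-values below are those of the authors. A row counts as changed where it names a gene, averages 1 FPKM or more across both genotypes and carries a q under 0.05. Shares of all named rows are taken over the 12332 named rows with such a mean. Prmt5, the targeted gene, had 40.9 FPKM (control) and 12.5 FPKM (Prmt5cKO). The table as a whole leaned downwards, with a median log2 ratio of -0.13 over rows of at least 1 FPKM, and each ratio is therefore also read against that median. Control and Prmt5cKO values were 87.3 and 0.392 FPKM for Xist and 0.0840 and 21.8 for Ddx3y, a gene of the Y chromosome, so an effect of genotype cannot be told apart from one of the sex of the embryos. The forelimb marker Tbx5 was at 23.0 and 19.9 FPKM. Of the markers listed for hindlimb and trunk, Pitx1 was at 0.143 and 0.268 FPKM and Tbx4 at 3.81 and 2.95. In bulk RNA, fewer cells of a type and less RNA per cell cannot be told apart.

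In GRCm38 with GENCODE M21, cluster A spans chromosome 6 from 52155590 to 52260880 and cluster B chromosome 11 from 96194316 to 96368256. Cluster C spans chromosome 15 from 102921103 to 103036852, and cluster D chromosome 2 from 74668310 to 74765142. Each is between 96.8 and 173.9 kb long. The sequences that follow did not enter the calls. They cover the promoters of the D cluster genes with rows of their own that fell, and of Hoxd10 for comparison. They also cover the microRNAs named in shared rows that changed, with miR-10a beside miR-10b. They are from RefSeq, build GRCm38.p6, whose promoter table held 22 of the 39 Hox symbols. Each promoter is the 200 bases before an annotated start of the gene, read 5′ to 3′, with capitals at matches on either strand. The window of Hoxd10 lies inside the RefSeq span of that gene, 74684273 to 74695106. The motifs searched were the TATA box TATAAA, the CCAAT box, the core TTTATNG that posterior Hox proteins bind, the composite Pbx and Hox site TGATNNAT, and the half-site AGGTCA bound by nuclear receptors such as those for retinoic acid. TATAAA on one strand can overlap TTTATNG on the other.
Hoxd8 (chr2:74704415-74704614, strand +): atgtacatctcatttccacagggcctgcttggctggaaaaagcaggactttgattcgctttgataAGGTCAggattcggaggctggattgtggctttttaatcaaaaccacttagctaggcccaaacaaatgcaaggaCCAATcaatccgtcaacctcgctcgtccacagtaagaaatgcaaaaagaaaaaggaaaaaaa
Hoxd12 (chr2:74674813-74675012, strand +): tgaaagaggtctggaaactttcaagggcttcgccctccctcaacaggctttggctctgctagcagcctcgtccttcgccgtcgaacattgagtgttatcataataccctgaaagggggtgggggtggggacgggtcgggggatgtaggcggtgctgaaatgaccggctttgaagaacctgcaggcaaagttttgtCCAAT
Hoxd10 (chr2:74691691-74691890, strand +): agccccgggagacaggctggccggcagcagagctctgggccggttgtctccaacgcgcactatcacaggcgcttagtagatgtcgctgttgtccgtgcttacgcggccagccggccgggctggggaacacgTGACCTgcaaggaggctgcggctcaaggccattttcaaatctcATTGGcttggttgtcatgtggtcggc

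Windows of Hoxd8 and Hoxd10 both held a CCAAT box and an AGGTCA half-site, and that of Hoxd12 held a CCAAT box at its very end. CCAAT was found in 11 of 24 Hox windows (Hoxa10 and Hoxd11 have 2 starts each) and in 29.3% of all 32851 windows of the same length. AGGTCA was found in 6 Hox windows (Hoxb4, Hoxc4, Hoxd3, Hoxd4, Hoxd8 and Hoxd10) and in 11.4% of all windows. TATAAA was in 4, TGATNNAT in 4 and TTTATNG in 2 Hox windows, against 9.96%, 5.85% and 7.73% of all. Within cluster D the half-site was found for Hoxd3 and Hoxd4, whose shared row fell, and for Hoxd8, which fell. It was also found for Hoxd10, which did not pass. The half-site was not found for Hoxd12, which fell, or for Hoxd9, Hoxd11 and Hoxd13, which did not pass. Nor was it found for Hoxd1, which was below the minimum. These are matches of letters, and binding was not measured.

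Of the 6 shared rows 3 name a microRNA gene. Those 3 all changed, where 22% of all named rows did, but not in 1 direction. The rows of Mir10b and Mir196b fell, and that of Mir196a-1 rose. In the mature sequences below capitals mark the seed, bases 2 to 8, by which a microRNA finds its targets.
mmu-miR-10b-5p: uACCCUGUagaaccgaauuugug
mmu-miR-10a-5p: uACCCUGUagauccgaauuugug
mmu-miR-196b-5p: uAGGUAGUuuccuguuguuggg
mmu-miR-196a-5p: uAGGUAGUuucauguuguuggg

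miR-10a and miR-10b share the seed ACCCUGU and differ by U12A, counted from the 5′ end, while miR-196a and miR-196b share AGGUAGU and differ by A12C. Mir10b lies with Hoxd3 and Hoxd4, Mir196b beside Hoxa9 and Mir196a-1 upstream of Hoxb9. The miR-196 family is known to act on Hoxb8 and other Hox messenger RNAs. The FPKM of a shared row comes from all transcripts assigned to it, so it does not measure the mature microRNA. Mir10a, Mir196a-2 and Mir615 had rows of their own and were listed at 0 FPKM in both genotypes.

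Posterior genes of clusters A and D made up most Hox RNA of the forelimb, in both genotypes. Summed over rows, cluster D held 263 FPKM in control and 244 in Prmt5cKO, while cluster A had 189.8 and 173. Cluster C held 7.20 and 8.91 and cluster B 4.82 and 6.44. Clusters D and A thus had 56.5% and 40.9% of the Hox total of 464 FPKM in control, and 56.5% and 40.0% of 433 in Prmt5cKO. Rows of groups 9 to 13 held 90.1% and 90.6% of it. The Hox total in Prmt5cKO was 93.2% of control, a log2 ratio of -0.10, which is above the median ratio of all rows. Shares of clusters B and C were small but higher in Prmt5cKO, 1.49% against 1.04% and 2.06% against 1.55%.

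**Figure D1:**
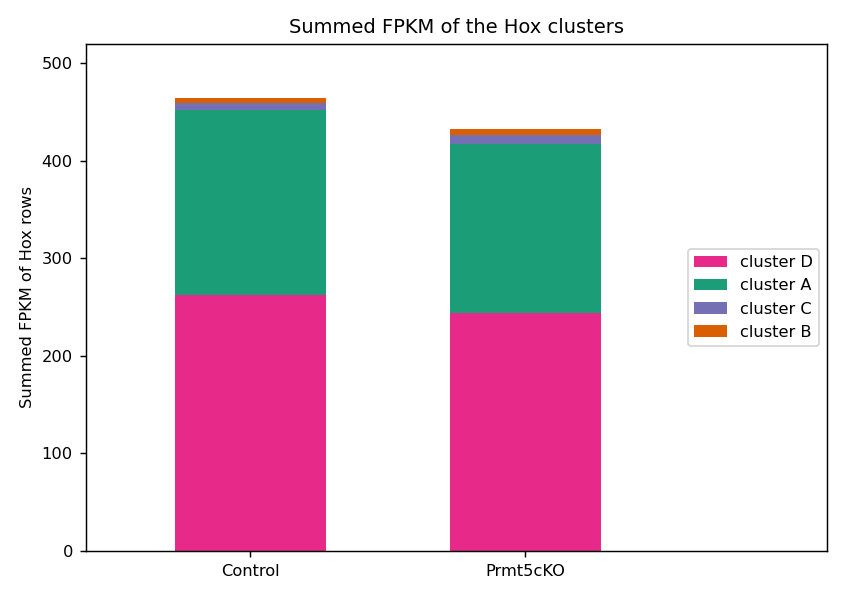
Bars give the summed FPKM of all Hox rows, shared rows included, in control (left) and Prmt5cKO (right), stacked by cluster, from 1 authors' value per row and genotype without error bars. Clusters D and A fill nearly the whole bar in each genotype, with totals of 464 and 433 FPKM.

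Within cluster D the level climbed towards the 5′ end. In control it went from 0.0610 FPKM for Hoxd1 through 7.25 for the row of Hoxd3 and Hoxd4, 11.1 for Hoxd8 and 8.55 for Hoxd9 to 29.5 for Hoxd10, 40.4 for Hoxd11, 51.7 for Hoxd12 and 114 for Hoxd13. Hoxd9, below Hoxd8, was the exception to that order. In Prmt5cKO the same genes were at 0.0634, 5.28, 8.26, 7.33, 35.3, 42.2, 39.1 and 107 FPKM, and here Hoxd12 stood below Hoxd11. Hoxd13, a marker of the future digits, ranked 568 by its control value among the 12332 named rows with a mean of at least 1 FPKM.

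Cluster A was likewise highest among its 5′ genes, with its top value in a shared row. Hoxa9, Hoxa10, Hoxa11 and Mir196b together had 136 FPKM (control) and 121 FPKM (Prmt5cKO), and Hoxa13, the partner of Hoxd13 in the hand, had 31.8 and 32.5. The row of Hoxa7 and the non-coding Mira was at 3.43 and 3.37. Hoxa2 and Hoxa4 were near or below 1 FPKM, with 1.04 and 0.980 in control and 0.725 and 0.763 in Prmt5cKO. The group 13 genes therefore differed widely in level, with Hoxc13 at 1.05 and 0.955 FPKM and Hoxb13 listed at 0 in both. In group 12 the contrast was 51.7 FPKM for Hoxd12 against 2.37 for Hoxc12 in control, in group 10 it was 29.5 for Hoxd10 against 0.444 for Hoxc10, and in group 8 it was 11.1 for Hoxd8 against 0.336 for Hoxc8 and 0.0586 for Hoxb8.

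Clusters B and C were low throughout. In cluster B only Hoxb2, a gene of the hindbrain and neck region, and the row of Hoxb9 with the non-coding Gm53 and Mir196a-1 reached a mean of 1 FPKM. Hoxb3 was at 0.996 FPKM (control) and 0.616 FPKM (Prmt5cKO) in the row used, and at 0.800 and 0.786 in its second row. With the rows of a symbol summed, Hoxb3 also reached the minimum, at a log2 ratio of -0.36. Hoxb4 was at 0.263 and 0.402 FPKM. Hoxb1, Hoxb6, Hoxb7 and Hoxb8 lay between 0.0254 and 0.333 FPKM over both genotypes, and Hoxb5, a gene needed to place the forelimb at the right body level, was listed at 0 in both, like Hoxb13. In cluster C Hoxc6, Hoxc12 and Hoxc13 reached the minimum. All told, 11 of the 29 genes with their own row and all 6 shared rows did so, and 18 genes did not. Hoxc13 was just inside the minimum, and Hoxa2, with a mean of 0.884 FPKM, just outside. The lowest q among these 18 in the authors' deposited table was 0.158, for Hoxc8, and 9 had a q of 1.

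**Figure D2:**
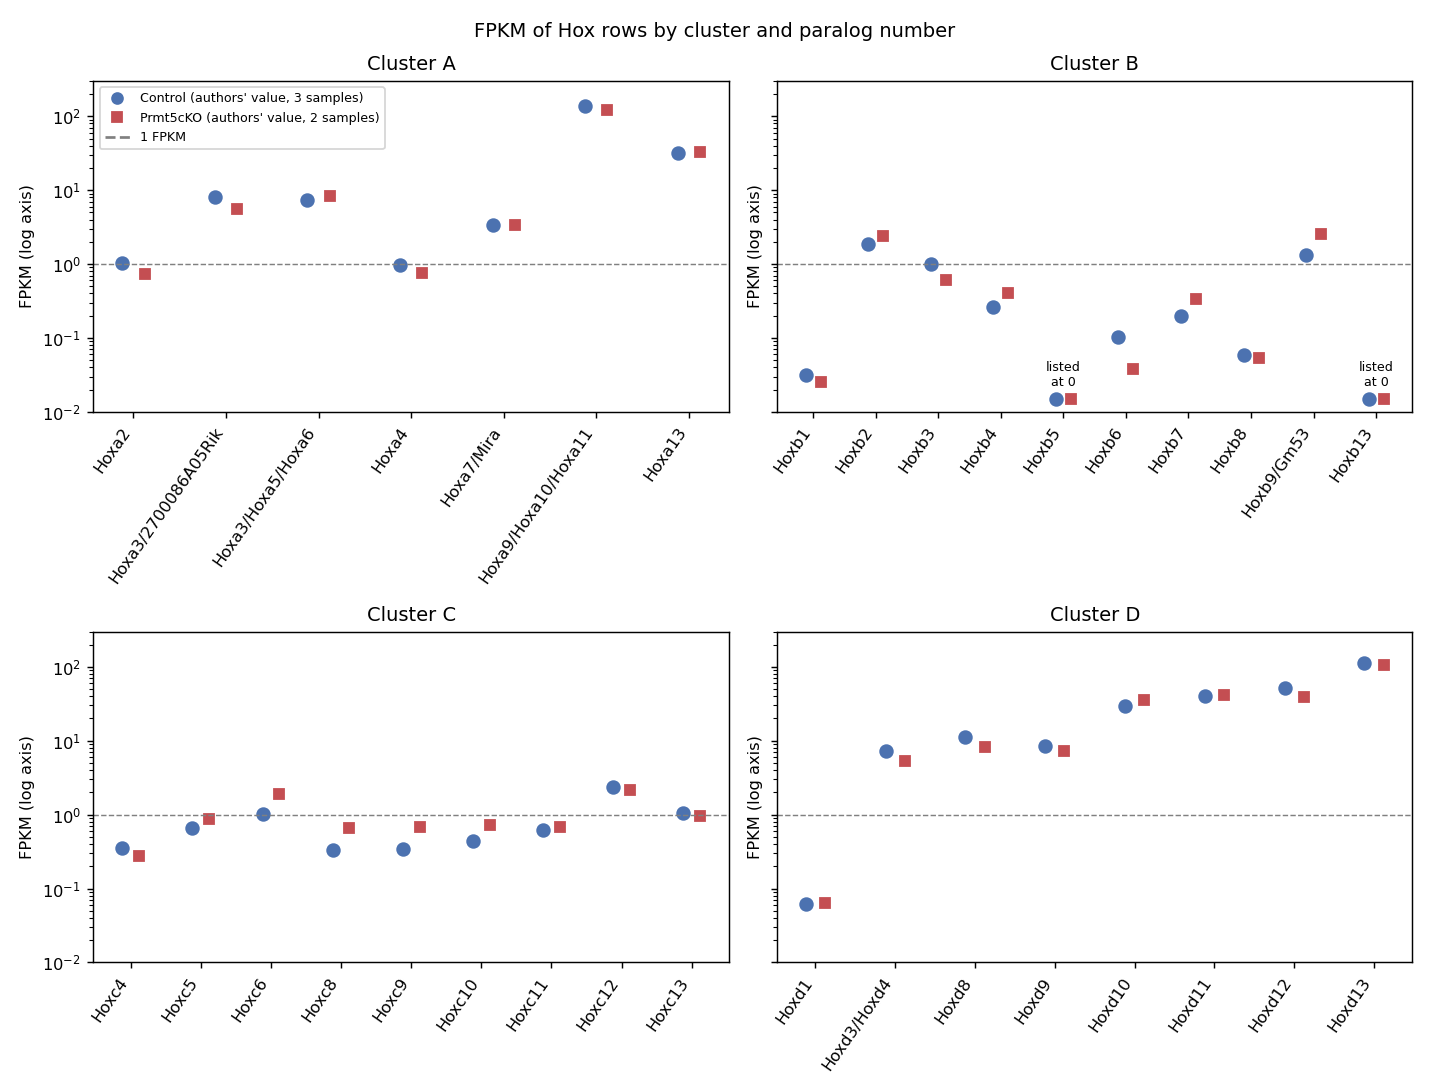
FPKM on a log axis for the Hox rows reported here, 1 panel per cluster with rows in paralog order, circles for control and squares for Prmt5cKO (1 authors' value each, no error bars); names joined by a slash share a row. Levels climb from Hoxd1 at 0.0610 to Hoxd13 at 114 FPKM in control, while clusters B and C stay below 3 FPKM; Hoxb5 and Hoxb13, listed at 0, are drawn at the foot of the axis.

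Between genotypes, of 17 Hox rows that reached 1 FPKM, 4 fell, 2 rose and 11 did not pass. So 35.3% changed, where 22% of all 12332 named rows of at least 1 FPKM did. Of those 12332 rows 1139 were read as untested and could not be called, while none of the 17 Hox rows was untested. Falls were 23.5% of the Hox rows and 17.5% of all rows, and rises 11.8% and 4.44%. The falls were the row of Hoxd3 and Hoxd4, Hoxd8, Hoxd12 and the row of Hoxa9, Hoxa10 and Hoxa11, and the rises were Hoxc6 and the row of Hoxb9. Counts this small differ from the background by a few rows. The median log2 ratio over the 17 rows was -0.09, which is 0.04 above that of all rows.

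Of the 4 falls, the 2 with the lowest ratios were on the 3′ side of cluster D. Hoxd3 and Hoxd4, genes that pattern the neck vertebrae, went in their shared row from 7.25 FPKM in control to 5.28 in Prmt5cKO. This is 72.9% of control, and the authors' deposited table puts this at -0.46 on the log2 scale with q = 1.08e-05. Hoxd8, next in the cluster (chromosome 2, 74704615 to 74707933, plus strand), went from 11.1 to 8.26 FPKM, and the authors' deposited table puts this at -0.42 on the log2 scale with q = 4.94e-04. Hoxd9, which patterns the upper arm, did not pass, with 8.55 and 7.33 FPKM (authors' deposited table: log2 fold change -0.22, q = 0.506). All 3 of these rows had lower values in Prmt5cKO, as did 69.7% of all named rows of at least 1 FPKM.

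On the 5′ side the values went apart. Hoxd10, active in the forearm region, had 29.5 FPKM (control) and 35.3 FPKM (Prmt5cKO) and did not pass, and the authors' deposited table puts this at 0.26 on the log2 scale with q = 0.209. Hoxd11, which acts with Hoxa11 to form radius and ulna, was at 40.4 and 42.2 FPKM (authors' deposited table: log2 fold change 0.06, q = 0.400). Hoxd12, between them and Hoxd13 on the chromosome (74675013 to 74677705, plus strand), fell from 51.7 to 39.1 FPKM, 75.6% of control, and the authors' deposited table puts this at -0.40 on the log2 scale with q = 0.00965. Hoxd13 was at 114 and 107 FPKM (authors' deposited table: log2 fold change -0.09, q = 0.613). Hoxd12 was therefore the only row of groups 9 to 13 in this cluster that passed, between neighbours that did not; whether its change differs from theirs was not tested. Set against the median of all rows, Hoxd12, Hoxd8 and the row of Hoxd3 and Hoxd4 lay at -0.27, -0.29 and -0.33, while Hoxd10 lay at 0.39, Hoxd11 at 0.19 and Hoxd13 at 0.04.

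In GENCODE M21 exons of these genes overlap others to a varying degree. Hoxd8, Hoxd9, Hoxd12 and Hoxd13 share no exon base with another gene on either strand. Hoxd10 shares 5.73% and Hoxd11 10.8% of its exon bases with Gm28309 on the same strand. Hoxd3 and Hoxd4 share 62.3% and 52.3% with each other and Gm28230, and with 1 value for the row these genes cannot be told apart.

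In cluster A the shared row of Hoxa9, Hoxa10 and Hoxa11, which pattern the upper arm and forearm, fell from 136 to 121 FPKM, and the authors' deposited table puts this at -0.17 on the log2 scale with q = 4.61e-04. Relative to the median of all rows that ratio is -0.04. Hoxa11os, transcribed against Hoxa11 and overlapping 35.0% of its exon bases, was at 80.4 and 72.1 FPKM (authors' deposited table: log2 fold change -0.16, q = 0.190). No source used here says whether the libraries kept strand, and without strand the reads of this pair cannot be told apart. Hoxa13 (chromosome 6, 52257694 to 52260880, minus strand) and the row of Hoxa7 did not pass, where the authors' deposited table gives log2 fold changes of 0.03 (q = 0.922) and -0.03 (q = 0.961).

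Hoxa3, a gene of the throat and neck, appears in 2 shared rows that leaned in opposite directions. With 2700086A05Rik, which RefSeq names Hoxaas3 and which GENCODE places on the opposite strand, it was at 8.04 and 5.58 FPKM (authors' deposited table: log2 fold change -0.53, q = 0.0663). With Hoxa5 and Hoxa6 it was at 7.31 and 8.25 FPKM (authors' deposited table: log2 fold change 0.17, q = 0.510). Neither passed, and a value for Hoxa3 alone cannot be drawn from them. Hoxa5 and Hoxa6 share no exon base with another gene in GENCODE M21.

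The rises were in low rows of the trunk-level genes. Hoxc6, a gene of the thoracic region also used in the early forelimb field (chromosome 15, 102998257 to 103011881, plus strand), rose from 1.02 to 1.92 FPKM, and the authors' deposited table puts this at 0.91 on the log2 scale with q = 0.0435. The row of Hoxb9, a thoracic-level gene whose paralog group is needed for Shh in the forelimb, with Gm53 and Mir196a-1 rose from 1.32 to 2.58 FPKM, and the authors' deposited table puts this at 0.97 on the log2 scale with q = 0.0263. Hoxb2 did not pass, with 1.85 and 2.39 FPKM (authors' deposited table: log2 fold change 0.37, q = 0.486). Hoxc12 and Hoxc13, the 5′ genes of cluster C, had q-values of 0.796 and 0.841 at log2 fold changes of -0.14 and -0.13 by the authors' deposited table.

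Neighbours of Hoxc6 had values that leaned the same way, at levels under the minimum. Hoxc8 was at 0.336 FPKM in control and 0.651 in Prmt5cKO, Hoxc9 at 0.341 and 0.690, Hoxc10 at 0.444 and 0.715, Hoxc5 at 0.665 and 0.873 and Hoxc11 at 0.628 and 0.678. Their q-values in the authors' deposited table were between 0.158 for Hoxc8 and 0.932 for Hoxc11, so none passed. Summed with Hoxc6 these 6 genes, picked after their values were seen, were at 3.44 and 5.53 FPKM. Hoxc4, at the 3′ end, leaned the other way at 0.350 and 0.278. In GENCODE M21 the gene span of Hoxc5 reaches from 102967443 to 103017429 and encloses Hoxc9, Hoxc8 and Hoxc6, though it shares exon bases only with Hoxc10.

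Markers listed for hindlimb and trunk, macrophages and muscle precursors are given beside these low rows. Of 6 markers listed for hindlimb and trunk 4 reached 1 FPKM. Of these Meox2 and Tbx18 fell and none rose, where 17.5% of all named rows fell. The 6 summed to 84.3 FPKM (control) and 62.2 FPKM (Prmt5cKO). Most of that was Meox2 (53.8 and 37.1 FPKM) and Tbx18 (24.3 and 19.8 FPKM), so the sum says little about the other markers. Whether Meox2 and Tbx18 are confined to such tissue was not tested. Pax1 of the vertebral precursors was low, at 0.0340 and 0.158 FPKM, as was Pitx1 above. Tbx4 (3.81 and 2.95 FPKM) and Meox1 (2.22 and 1.86 FPKM) reached 1 FPKM and did not pass. Of 5 macrophage markers 4 rose (4.44% of all named rows did), with a summed level of 13.9 and 24.2 FPKM. Of 6 muscle precursor markers 4 reached 1 FPKM and none of these passed, with sums of 34.3 and 33.2 over the 6. Most of that was Myog (26.6 and 23.0 FPKM), lower in Prmt5cKO, while the other markers on this list had higher values there. The median log2 ratio of the 4 was 0.29, or 0.42 relative to all rows. Pax3, also active in trunk somites, was under the minimum at 0.525 and 1.14 FPKM (authors' deposited table: q = 0.00187). The part of any of these cells in the values of Hoxc6 and Hoxb9 was not tested.

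**Figure D3:**
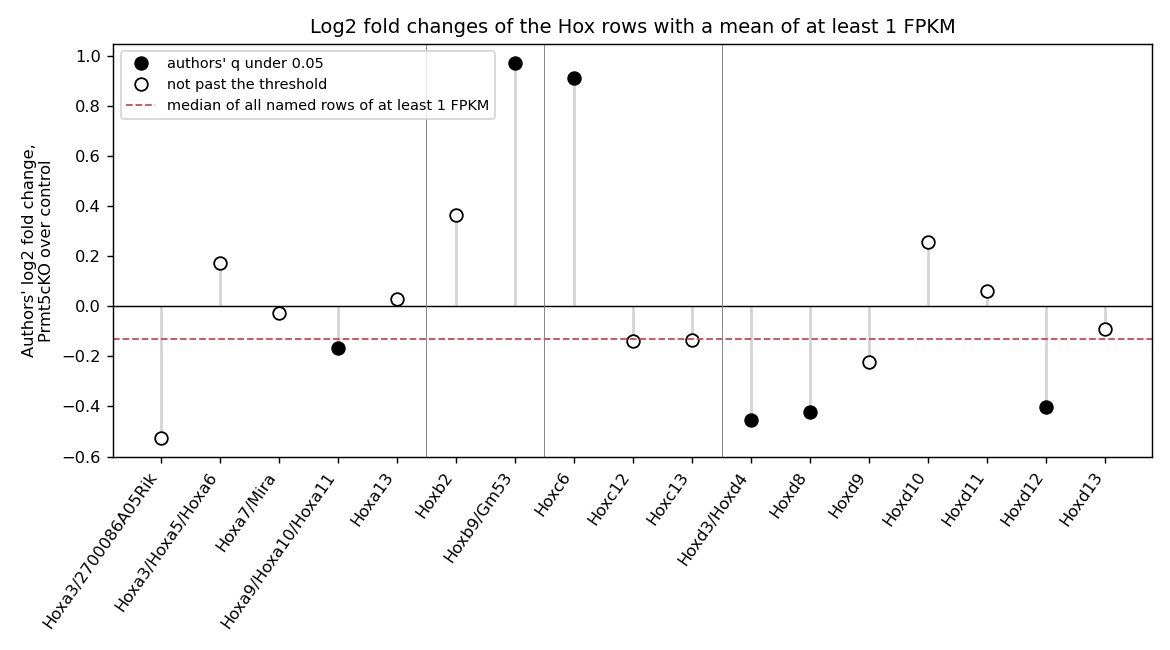
The authors' log2 fold change of Prmt5cKO over control for the 17 Hox rows with a mean of at least 1 FPKM, in cluster order with thin lines between clusters; filled points have a q under 0.05, and the dashed line is the median of all named rows at -0.13. The row of Hoxa9, Hoxa10 and Hoxa11 is filled but lies close to the dashed line, and Hoxc6 and the row of Hoxb9 are the filled points above it.

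Set among all rows, the Hox rows lay inside the cloud of ratios at their level. Those above 20 FPKM (Hoxd10 to Hoxd13, Hoxa13 and the row of Hoxa9) had log2 fold changes between -0.40 and 0.26 in the authors' deposited table. Ratios of the rows under 3 FPKM ranged from -0.14 to 0.97. By cluster, the median log2 ratio of rows that reached 1 FPKM was -0.03 in A (5 rows), 0.67 in B (2 rows), -0.13 in C (3 rows) and -0.22 in D (7 rows), and relative to the median of all rows 0.10, 0.80, 0.00 and -0.09, so the sign of A turned with the scaling. By position, it was -0.11 for groups 9 to 13 (10 rows) and -0.03 for groups 1 to 8 (7 rows), or 0.02 and 0.10 relative to all rows, so both signs turned. With a minimum of 5 FPKM the order of these medians reversed, to -0.09 for groups 9 to 13 (7 rows) and -0.44 for groups 1 to 8 (4 rows). With no minimum the median of cluster B was 0.11 (10 rows) and that of cluster C 0.39 (9 rows), so these medians rest on which low rows are counted.

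**Figure D4:**
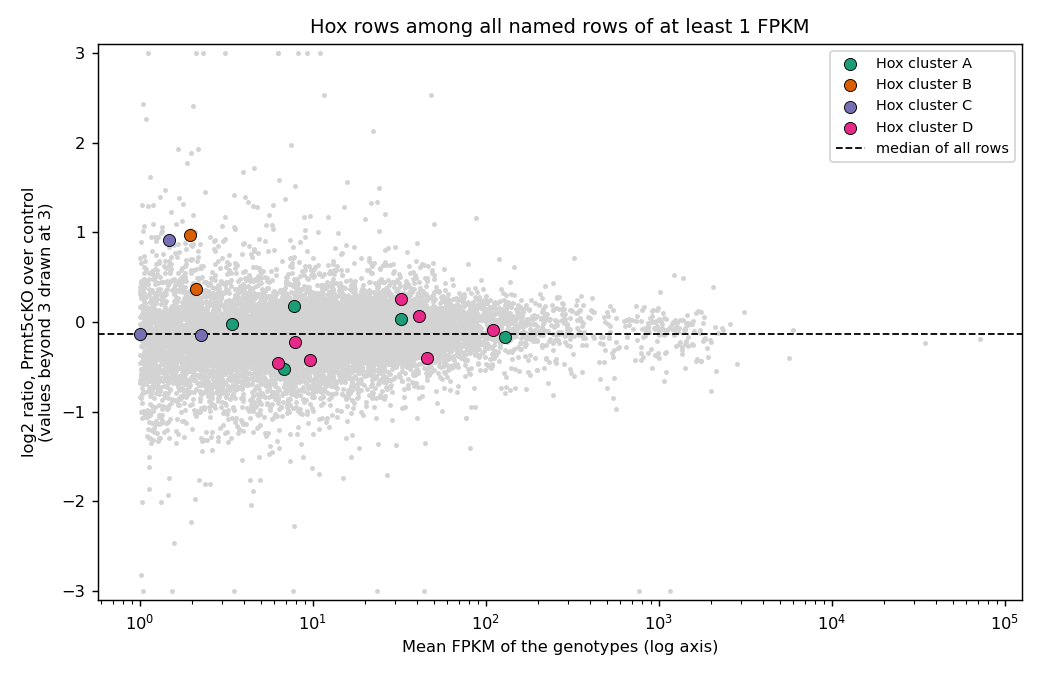
Log2 ratio of Prmt5cKO over control against the mean FPKM (log axis) for named rows of at least 1 FPKM, with Hox rows coloured by cluster over all others in grey; ratios beyond 3 in size are drawn at 3, and the dashed line is the median at -0.13. Hox rows lie within the grey cloud, with Hoxc6 (mean 1.47 FPKM) and the row of Hoxb9 (1.95) near its upper part at low level.

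Beyond the 5′ end of cluster A 3 rows rose, while Hoxa13 next to them did not pass. Of all named rows 4.44% rose. Hottip, a long non-coding RNA that starts 1.9 kb beyond Hoxa13 and is known to help keep the 5′ genes of cluster A active, rose from 7.56 to 12.4 FPKM (authors' deposited table: log2 fold change 0.71, q = 2.37e-09). Evx1, a homeobox gene 52.6 kb beyond the cluster on the same side, rose from 1.74 to 3.38 FPKM (authors' deposited table: log2 fold change 0.95, q = 3.77e-06). The RNA gene 5730457N03Rik, which RefSeq names Evx1os, singled out after its value was seen, rose from 3.96 to 5.66 FPKM (authors' deposited table: log2 fold change 0.51, q = 0.031). In RefSeq its span (52308389 to 52314832) overlaps that of Evx1 (52313498 to 52318389). With the strand setting unknown, the rises of Evx1 and 5730457N03Rik may not be separate. Hoxa13, nearest to all 3 rows, was at 31.8 and 32.5 FPKM, as given above. The difference between their folds and that of Hoxa13 was not tested.

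Beside cluster D the pattern was another. Evx2, 8.8 kb beyond Hoxd13 and known to share its digit enhancers, was at 9.51 and 9.48 FPKM (authors' deposited table: log2 fold change 0.00, q = 0.991). Lnp, 88.9 kb away on that side and active in digits too, fell from 19.3 to 15.2 FPKM (authors' deposited table: log2 fold change -0.35, q = 2.66e-06). Mtx2, 60.7 kb beyond the 3′ side, was at 50.8 and 48.3 (authors' deposited table: q = 0.773). Of 25 genes listed as neighbours of the 4 clusters 23 were found, and 20 of these reached 1 FPKM. Among them Evx1 was the 1 that rose, 4 fell (Lnp, Calcoco1, Smug1 and the row of Hnrnpa3), 14 did not pass, and the authors left 1 untested, so 25% had changed beside 22% of all rows. Calcoco1, 198.9 kb from cluster C, fell from 18.8 to 11.1 FPKM and Smug1, 116.4 kb away, from 6.10 to 4.66. Among RNAs within the clusters Hotair was at 0.117 and 0.135 FPKM, Hoxd3os1 at 0.760 and 0.583, and 6720416L17Rik, which RefSeq names Haglr, at 0.257 and 0.253.

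**Figure D5:**
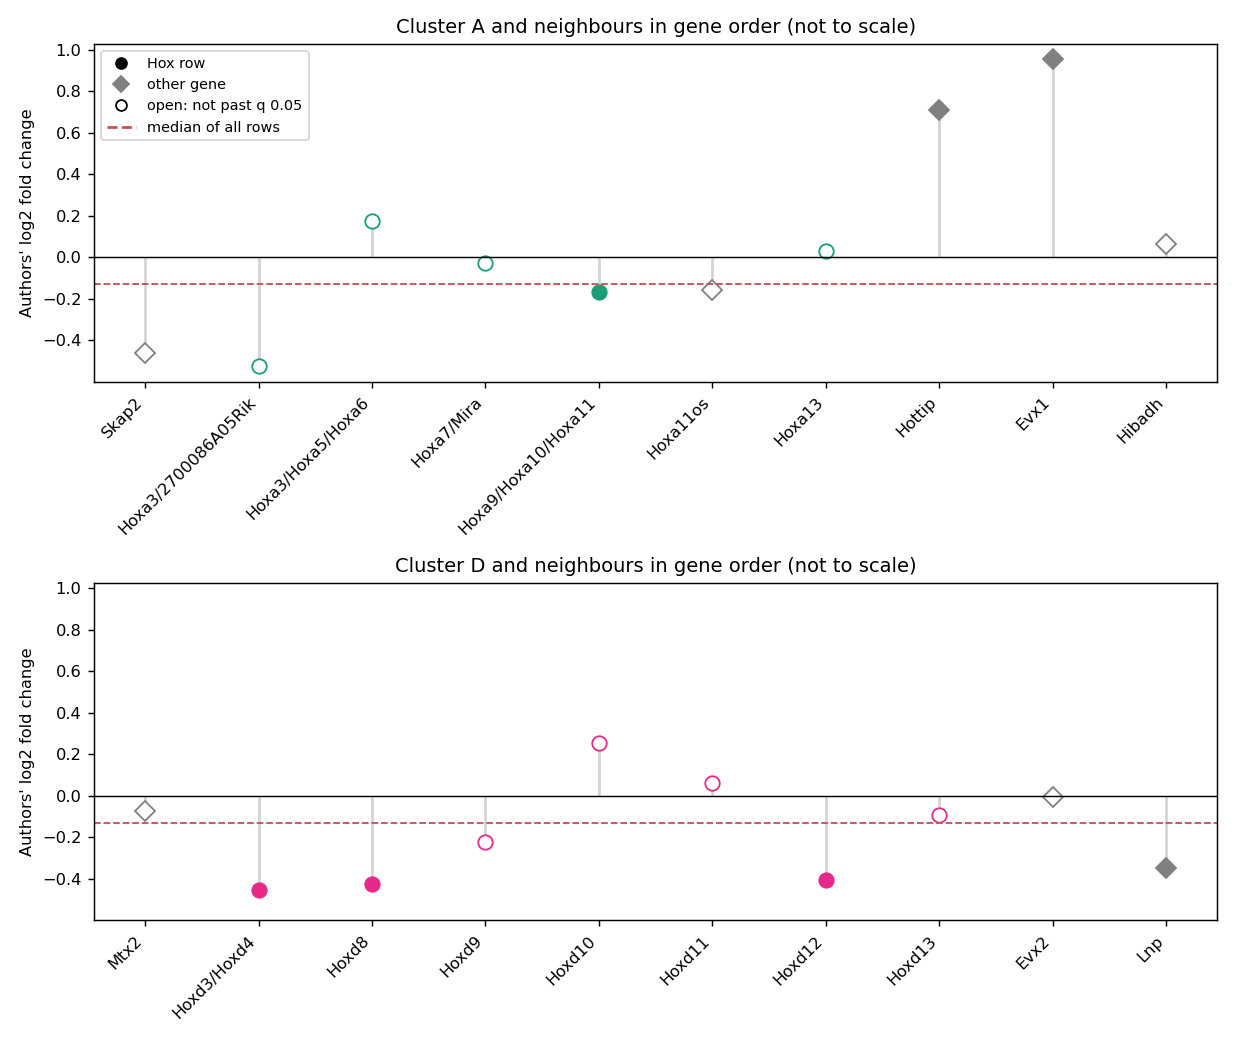
The authors' log2 fold change for rows of at least 1 FPKM in clusters A (top) and D (bottom), coloured circles for Hox rows and grey diamonds for neighbouring genes, in gene order and not to scale; open symbols did not pass a q of 0.05 and the dashed line is the median of all rows. Hottip (0.71) and Evx1 (0.95) stand above Hoxa13 (0.03), whereas Evx2 lies at 0.00 beside Hoxd13.

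Partners that bind DNA with Hox proteins fell in part. Of 9 cofactor genes of the Pbx, Meis and Pknox families 4 fell, none rose and 5 did not pass, so 44.4% fell where 17.5% of all named rows did, with a median log2 ratio of -0.27, or -0.14 relative to all rows. Among the falls, Pbx3, of a family that helps Hox proteins choose their sites, went from 17.1 to 14.2 FPKM, Pknox2 from 5.76 to 4.63, and the row of Pbx2 and Gpsm3 from 59.0 to 48.9. Meis1 and Meis2, markers of the upper arm, did not pass, with Meis1 at 4.65 and 5.92 FPKM and Meis2 at 4.43 and 4.42.

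Among 35 genes known to regulate Hox transcription 30 reached 1 FPKM, of which 2 rose and 4 fell, while 17 did not pass and the authors left 7 untested (20% changed, near the 22% of all named rows, median log2 ratio -0.11, 0.02 relative to all rows). The share called is thus no result about this list, and its called members are given as single values. Both rises were core subunits of Polycomb complex PRC2, which silences Hox genes: Eed went from 33.5 to 52.5 FPKM and Suz12 from 25.9 to 31.7. Its enzyme Ezh2 was at 51.9 and 50.4 and did not pass (authors' deposited table: q = 0.775). Of the falls, Aldh1a2, which makes retinoic acid, an inducer of 3′ Hox genes, went from 23.2 to 12.8 FPKM, and Rarb, a receptor gene that retinoic acid itself induces, from 2.84 to 1.37. Gdf11, a signal that sets the onset of posterior Hox genes in the trunk, fell from 21.0 to 17.0, and Cbx8, a Polycomb reader, from 14.1 to 10.7. The X-linked demethylase gene Kdm6a, not tested by the authors, was at 29.8 and 16.6 FPKM.

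More genes rose than fell among genes downstream or upstream of Hox proteins in the limb bud. Of 38 such genes 34 reached 1 FPKM; 10 of them rose and 3 fell, while 16 did not pass and the authors left 5 untested, and the median log2 ratio was 0.20, or 0.33 relative to all rows. Shh, whose posterior expression needs 5′ Hox genes, was below the minimum at 0.172 and 0.860 FPKM (authors' deposited table: q = 6.6e-04). Sall4, a zinc finger factor, rose from 1.40 to 2.53 FPKM, and Tbx2 and Tbx3, T-box factors of the bud margins, from 6.00 to 9.20 and from 6.38 to 7.89. Jag1, a Notch ligand, rose from 20.8 to 32.3. Epha4, a receptor for cell sorting known as a target of posterior Hox proteins, fell from 114 to 95.02, and Bmper, a BMP modulator, from 5.71 to 4.51. Hand2, a factor that acts upstream of Shh with Hox proteins, did not pass, with 52.1 and 48.9 FPKM (authors' deposited table: q = 0.664), and Gli3, not tested by the authors, was at 28.1 and 22.7. The share of this list that changed was 38.2%, against 22% of all named rows, of which 4.44% rose and 17.5% fell. Of 4 markers of the apical ridge, the signalling ectoderm at the limb tip, 3 rose, and their sum was 17.2 and 28.1 FPKM. Of 4 joint and cartilage markers 3 reached 1 FPKM and all 3 fell, with sums of 94.0 and 51.5 over the 4. Fgf8 and Dlx5 stand in both the apical ridge and the limb list, and Gdf5 in both the cartilage and the limb list. The part of ridge and cartilage cells in the values of the limb list was not tested.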

How the data were processed

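RNA-seq of 3 control and 2 Prmt5cKO forelimb samples was grouped by sample title. Per the submitters' processing notes the tools were Bowtie2 2.1.0, Cufflinks 2.1.1 and TopHat2 2.0.10 and the build mm10, without their roles; no source used here gives the annotation, the strand setting or the test. Per the file headers, the authors deposited for each row 1 FPKM per genotype, a q-value (adjusted p-value) and a log2 fold change, positive where Prmt5cKO is higher. With no value per sample, the planned limma fit, replicate block and omission of replicates could not be run, so no p-value or error was computed here, and the q-values may or may not measure the spread between replicates. Depth is unknown: 909 rows under 0.05 FPKM showed no common step. Unnamed rows (15.5%) were left out.

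The deposited log2 fold changes of Hox rows equalled the log2 ratio of the FPKM columns within 6.35e-06. Ratios and medians were computed over rows with a mean of at least 1 FPKM; rows with a fold of 0 and a q of 1 were read as untested. Counting was tested on simulated data. All Hox genes enter the counts and sums; of other lists, changed genes and those the text turns on are named. Some items are not reported here. The members and lists were chosen with earlier results of these data known. Positions are from GENCODE M21 and sequences from RefSeq GRCm38.p6. Python 3.11.15, numpy 2.4.6 and pandas 2.3.3 were used. A second, shorter table holds no Hox gene and was not used. Alternatives were minima of 0 and 5 FPKM, q under 0.01 and 0.1, pseudocounts of 1, 0.1 and 0.01, rescaling by the median ratio and summed rows per symbol.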

Additional observations from a re-analysis of the deposited data

How the results depend on the processing

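Falls numbered 4 Hox rows under 8 of the 9 alternatives and 5 at a q under 0.1. Rises numbered 2 under 7 of the alternatives. At a q under 0.01 and at a minimum mean of 5 FPKM, 0 rose. The q of Hoxc6 and of the Hoxb9 row lies above 0.01, and their mean below 5 FPKM. Most of the unchanged counts were fixed in advance, because a call rests on the authors' q and the sign of the ratio. Pseudocounts change neither, summed rows kept the authors' q, and rescaling could only turn a sign. The row added at a q under 0.1 was that of Hoxa3 with 2700086A05Rik (log2 ratio -0.53). Rescaling by the median ratio turned the median of cluster A to 0.10, of groups 9 to 13 to 0.017 and of groups 1 to 8 to 0.10. With no minimum the median of cluster C turned to 0.39 and that of groups 9 to 13 to 0.030, while cluster B went from 0.67 (2 rows) to 0.11 (10 rows), cluster A to -0.16 and groups 1 to 8 to -0.15. The median of cluster B was also 0.44 with a pseudocount of 1 and 0.37 (3 rows) with the rows of a symbol summed. At a minimum of 5 FPKM that of groups 1 to 8 was -0.44 (4 rows), of groups 9 to 13 -0.09 and of cluster A -0.07. At a q under 0.01 the falls were 1 among cofactors and 2 among regulators of Hox transcription, and at a minimum of 5 FPKM the rises among neighbours were 0. No fitted value from single samples exists, so no sample could be left out. No paired analysis was possible because the table holds 1 value per genotype. Depth cannot be recovered, so how far counting error limits the low rows of clusters B and C is unknown.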
